A study of Mus musculus with 24 samples.

Results

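Slit1, Slit2 and Slit3 encode secreted guidance ligands, Robo1 and Robo2 their receptors, and Srgap1, Srgap2 and Srgap3 GTPase-activating proteins that bind the inner tail of the Robo receptors. With Mir218-2, a microRNA gene that lies inside Slit3, they make 9 genes, described here across the prefrontal cortex of 12 mutant and 12 wild-type samples. They were taken by gene symbol from 18820 genes measured on the same arrays, each gene by its brightest table row with a single symbol. All 9 were found, 8 of them in 1 row and Srgap3 in 2 rows. Slit3 and Mir218-2 were picked because their adjusted p-values in the comparison of genotypes were known to be under 0.05, so for these 2 genes the difference is a description and supports nothing. The other 7 were picked by family, and Robo3, Robo4 and Mir218-1 were followed beside them.

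The mutants were heterozygous for Df(16)A, written Df16(A)+/- in the sample labels, an engineered loss of a single copy of a chromosome 16 segment that models the human 22q11.2 microdeletion. The wild types, labelled WT, were their littermates. Both groups were male, 8 weeks old, on a C57BL6/J background, and no other allele or treatment is named for either. Each array holds 1 prefrontal cortex sample of total RNA; the labels call the arrays replicates without stating that every one is a separate animal, so p-values measure the spread between these arrays. Values are log2 levels after RMA (robust multi-array average), and a difference is always mutant minus wild type on that log2 scale.

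A Slit protein binds the outer part of a Robo receptor and usually repels the growing axon or migrating neuron that carries it, the best known case being axons that cross the midline. In the developing forebrain the pathway steers the large fibre tracts and the migration of cortical interneurons, and the receptors remain expressed in the adult cortex. Signals inside the cell pass through small GTPases such as Rac1 and Cdc42, which the srGAP proteins switch off. In mammals miR-218 comes from 2 loci, Mir218-1 inside Slit2 and Mir218-2 inside Slit3, and earlier reports name Robo1 and Robo2 among its targets.

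The hairpins of both loci are given because the array rows named Mir218-1 and Mir218-2 carry the symbols of these precursor genes. They come from RefSeq, build GRCm38.p6, both on the plus strand, at chr11:35616816-35616925 for Mir218-2 and at chr5:48223942-48224051 for Mir218-1. Each lies within the bounds of its host gene in the RefSeq gene table. Capitals mark the mature arms.
Mir218-2 hairpin: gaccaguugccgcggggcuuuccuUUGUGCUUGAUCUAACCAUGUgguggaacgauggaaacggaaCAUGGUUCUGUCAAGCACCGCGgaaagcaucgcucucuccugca
Mir218-1 hairpin: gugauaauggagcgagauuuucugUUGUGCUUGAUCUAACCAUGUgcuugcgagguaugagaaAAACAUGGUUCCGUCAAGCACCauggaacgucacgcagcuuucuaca

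The mature arms follow with the seed, bases 2 to 8, in capitals, because a target is chosen mainly by its match to the seed.
miR-218-5p of both loci: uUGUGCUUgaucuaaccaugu
miR-218-2-3p: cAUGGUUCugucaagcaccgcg
miR-218-1-3p: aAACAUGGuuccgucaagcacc

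The 5p arms were identical in 21 of 21 bases, so a mature miR-218-5p does not show which locus it came from. The 3p arms differed in their seeds, and their longest shared run was 10 bases. Each hairpin was 110 bases long, with 54.5% G and C in Mir218-2 and 45.5% in Mir218-1, and the longest run shared by the hairpins was 22 bases. The probe sequences of the array were not used here. Whether a row named for a microRNA gene reads hairpin, mature arm or host transcript was therefore not tested. Such rows are called precursors by their gene symbol only.

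Of the 9 genes, 2 were higher in mutants at an adjusted p under 0.05 (limma, Benjamini-Hochberg adjustment over all genes), none was lower, and 7 did not pass. Among all 18820 genes 0.531% were higher and 0.228% lower, 0.76% in either direction. The 2 higher ones are Slit3 and Mir218-2, for which the count was known beforehand. Among the 7 picked by family none passed, and 1 of them, Slit2, had an unadjusted p under 0.05, as did 11.9% of all genes. The median difference was 0.03 over these 7 and -0.0014 over all genes.

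**Figure D1:**
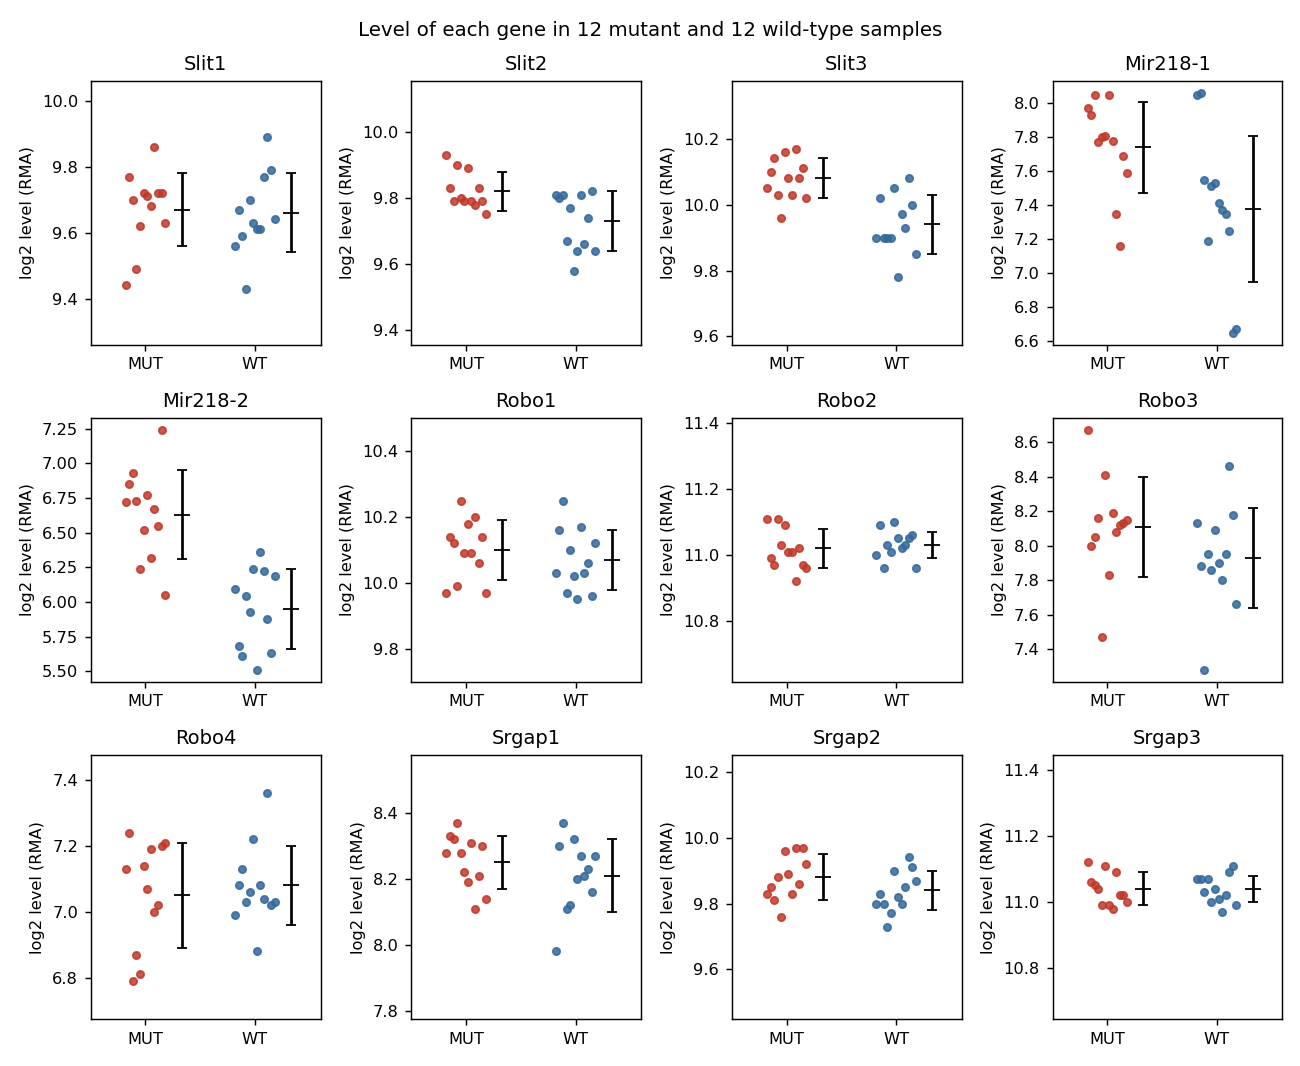
Log2 level (vertical axis, a span of its own in each panel) of 12 genes in each of 12 mutant (MUT, left) and 12 wild-type (WT, right) samples; points are samples, ordered by replicate number, and bars are the mean ± SD. The clearest separation is in Mir218-2, where 9 of 12 mutants lie above every wild type, and in Slit3, where 6 do.

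Slit3, a ligand expressed in brain and in many other tissues, had levels in mutants with a lowest value of 9.96, a median of 10.08 and a highest value of 10.17, against 9.78, 9.92 and 10.08 in wild types. All 12 mutants lay above the wild-type median and 6 above the highest wild type, while 7 wild types lay below the lowest mutant. The groups overlapped between 9.96 and 10.08. The mean was 10.08 ± 0.06 in mutants and 9.94 ± 0.09 in wild types (SD, n = 12 each). The difference was 0.14 ± 0.03 (SE; limma, adjusted p = 0.0324), a 1.1-fold higher level with a 95% interval of 1.05 to 1.15. In bulk tissue, a change in the number of cells that make a transcript and a change in RNA per cell cannot be told apart.

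The size of the Slit3 difference hardly moved between settings, but its place relative to the threshold did. Leaving out 1 array at a time gave differences between 0.12 and 0.15 and adjusted p-values between 0.0112 and 0.0642. The call was lost without any one of 13 arrays, with adjusted p-values between 0.0508 and 0.0642: mutant replicates 2, 3, 6, 7, 9 and 11 and wild-type replicates 1, 3, 4, 5, 7, 9 and 12. Without the 3 mutant arrays farthest out on the first principal component (replicates 5, 9 and 10) the difference was 0.14 ± 0.03 with an adjusted p of 0.0595. Within arrays 1 to 12, by the running array number in the labels, it was 0.15 ± 0.04 (limma, adjusted p = 0.268), and within arrays 13 to 24 it was 0.13 ± 0.05 (adjusted p = 0.447).

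Slit2, the ligand that also repels axons at the midline and the host of Mir218-1, had levels in mutants with a lowest value of 9.75, a median of 9.80 and a highest value of 9.93, against 9.58, 9.75 and 9.82 in wild types. Of the mutants 11 lay above the wild-type median and 5 above the highest wild type, and 6 wild types lay below the lowest mutant. The difference of 0.09 ± 0.03 (SE) did not pass the test (limma, adjusted p = 0.211, unadjusted p = 0.00651). Its fold was 1.07, with a 95% interval of 1.02 to 1.11, which overlaps that of Slit3; the difference between the 2 genes was not tested.

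Slit1, the ligand known mainly from the nervous system, lay between 9.44 and 9.86 in mutants (median 9.70) and between 9.43 and 9.89 in wild types (median 9.64). The ranges covered each other almost fully. Its difference was 0.01 ± 0.05 (SE; limma, adjusted p = 0.948), with a 95% interval of -0.08 to 0.11.

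Mir218-2 had levels in mutants with a lowest value of 6.05, a median of 6.70 and a highest value of 7.24, against 5.51, 5.99 and 6.36 in wild types. Of the mutants 9 lay above the highest wild type, and the other 3, replicates 5, 8 and 12, lay at 6.24, 6.32 and 6.05, inside the wild-type range. The mean was 6.63 ± 0.32 in mutants and 5.95 ± 0.29 in wild types (SD, n = 12 each), a difference of 0.68 ± 0.12 (SE; limma, adjusted p = 0.00135). This is a 1.61-fold higher level, with a 95% interval of 1.36 to 1.90. Leaving out 1 array at a time kept the difference between 0.63 and 0.74 and the adjusted p at 0.00352 or less. It was 0.81 ± 0.12 (limma, adjusted p = 0.00647) within arrays 1 to 12, and 0.56 ± 0.20 (adjusted p = 0.379) within arrays 13 to 24.

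Mir218-2 lay among the dimmest 50% of genes, and RMA in general compresses the differences of dim rows. Among 303 measured microRNA precursor genes, of which 59 were higher in mutants and none lower, it ranked 7th by difference, and the median precursor stood at 0.11. In the whole set of genes 0.531% were higher and 0.228% lower. Dgcr8, whose product starts the processing of most microRNAs, lies in the deleted segment. Its difference was -0.54 ± 0.03, and its part in the precursor differences was not tested.

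Mir218-1 gives the same mature 5p arm from the Slit2 locus. Its levels in mutants had a lowest value of 7.16, a median of 7.79 and a highest value of 8.05, against 6.65, 7.39 and 8.06 in wild types. No mutant lay above the highest wild type, although 10 lay above the wild-type median. The difference was 0.36 ± 0.14 (SE), a fold of 1.28 with a 95% interval of 1.05 to 1.57, and did not pass (limma, adjusted p = 0.292). It ranked 49th of the 303 precursors by difference. Its wide spread moved with the running array number in the labels, as described further on.

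**Figure D2:**
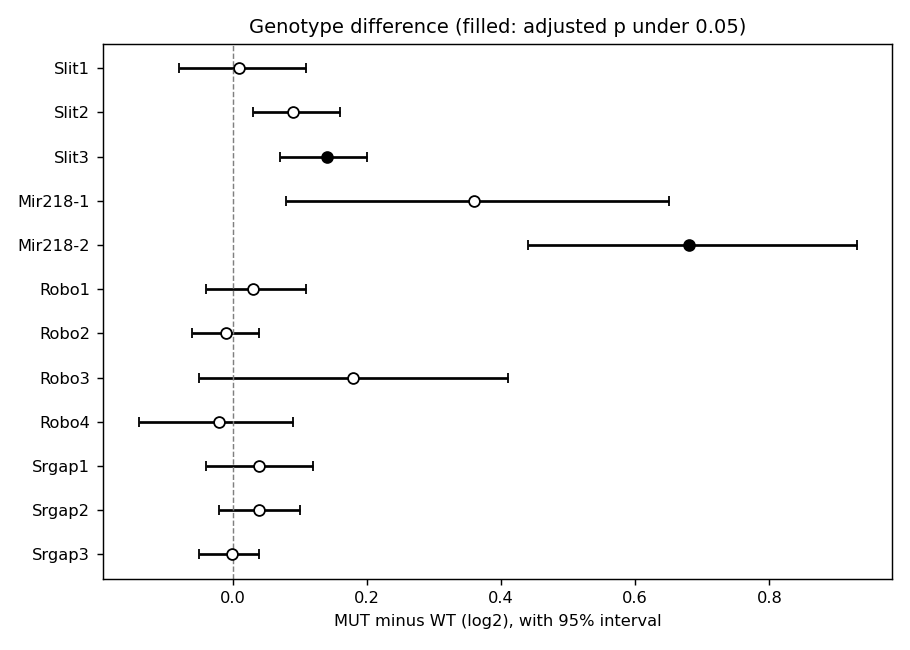
Difference between mutant and wild-type means (log2, horizontal axis) with its 95% interval for 12 genes; filled points passed an adjusted p under 0.05 in limma. Slit3 at 0.14 and Mir218-2 at 0.68 are filled; the intervals of Slit2 and Mir218-1 lie above 0 but their adjusted p-values were 0.211 and 0.292.

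Among the receptors, Robo1, which binds Slit in axons and migrating neurons, lay between 9.97 and 10.25 in mutants (median 10.11) and between 9.95 and 10.25 in wild types (median 10.05). The groups overlapped over nearly their whole range. The difference was 0.03 ± 0.04 (SE; limma, adjusted p = 0.775), with a 95% interval of -0.04 to 0.11. Robo2, which acts with Robo1 in many axon tracts, lay between 10.92 and 11.11 in mutants (median 11.01) and between 10.96 and 11.10 in wild types (median 11.03). Mutants extended past the wild types at both ends, 2 above and 2 below. Its difference was -0.01 ± 0.02 (SE; limma, adjusted p = 0.866), with a 95% interval of -0.06 to 0.04.

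Both genes lie on chromosome 16, which also carries the deletion, but outside the deleted segment. The intervals bound any change of Robo1 to a fold between 0.969 and 1.08 and of Robo2 to a fold between 0.956 and 1.03 on this scale. Robo3, a divergent receptor that in mammals helps commissural axons cross and binds Slit poorly, lay between 7.47 and 8.67 in mutants and between 7.28 and 8.46 in wild types. Its difference of 0.18 ± 0.11 (SE) came with a wide interval, -0.05 to 0.41 (limma, adjusted p = 0.556). Robo4, the receptor of endothelial cells, lay between 6.79 and 7.24 in mutants and between 6.88 and 7.36 in wild types, with a difference of -0.02 ± 0.06 (limma, adjusted p = 0.909).

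The srGAP proteins bend membranes with their F-BAR domain and turn off small GTPases. Srgap1, which acts on Cdc42 after Slit binds Robo1, lay between 8.11 and 8.37 in mutants (median 8.28) and between 7.98 and 8.37 in wild types (median 8.22). Its difference was 0.04 ± 0.04 (SE; limma, adjusted p = 0.693), and 1 mutant lay above all wild types. Srgap2, which shapes dendritic spines and the migration of cortical neurons in mice, lay between 9.76 and 9.97 in mutants (median 9.87) and between 9.73 and 9.94 in wild types (median 9.83). Its difference was also 0.04, with an SE of 0.03 and a 95% interval of -0.02 to 0.10 (limma, adjusted p = 0.596). Srgap3, also called WRP, which acts on Rac1, lay between 10.98 and 11.12 in mutants and between 10.97 and 11.11 in wild types. The 2 groups could not be separated, with a difference of -0.00082 ± 0.02 (SE; limma, adjusted p = 0.994), and the second, dimmer Srgap3 row had a difference of 0.01. Under at least 1 of 15 other settings the sign of the difference turned for Slit1, Robo2, Srgap1 and Srgap3, none of which passed under any of them. For Robo4, which 14 of these settings give, the sign turned under 2, and the gene passed under none.

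The wider pathway was examined through lists of genes. Each count of genes with an unadjusted p under 0.05 in limma is to be read beside the 11.9% of all genes that had one. Of 19 measured genes whose products bind Slit or Robo or build heparan sulfate, the sugar chain that Slit needs to bind its receptor, none passed the test in limma, and 2 had an unadjusted p under 0.05. Their median difference was 0.01. Gpc1, a glypican that carries heparan sulfate and binds Slit, had 0.10 ± 0.04 (SE; adjusted p = 0.267). Usp33, a deubiquitinase that binds Robo1, had -0.06 ± 0.03 (adjusted p = 0.382), and Hs6st1, a heparan sulfate sulfotransferase, had 0.06 ± 0.03 (adjusted p = 0.468).

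Of 18 measured effectors in the cytoplasm, among them Abl kinases, Ena/VASP proteins, adaptors and small GTPases, none passed in limma and 1 had an unadjusted p under 0.05. That one was Nck1, an adaptor protein; its mutant levels ran between 7.72 and 8.21 and its wild-type levels between 8.00 and 8.27, and 9 mutants lay below the lowest wild type. Its difference was -0.15 ± 0.05 (SE; adjusted p = 0.157). The call depended on the arrays used: without mutant replicate 4 the difference was -0.18 and the adjusted p 0.0462. Sos2, an exchange factor, had -0.05 ± 0.03 and Evl, an Ena/VASP protein, 0.04 ± 0.03.

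Guidance genes outside the pathway served as a comparison. Of 42 measured netrin, semaphorin, ephrin and related genes none passed in limma, and the median difference was -0.001. An unadjusted p under 0.05 was found for 5, a share like the 11.9% over all genes. Plxnd1, a semaphorin receptor, had 0.16 ± 0.04 (SE; adjusted p = 0.117, and 0.0412 with the replicate number as a block). Without wild-type replicate 11 its adjusted p was 0.0449. Sema3a, a repellent semaphorin, had -0.10 ± 0.03 (adjusted p = 0.211) and Plxna2, another semaphorin receptor, 0.08 ± 0.03 (adjusted p = 0.236).

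A list of 8 genes reported as miR-218 targets in other work was read beside the miR-218 loci. None passed in limma, none had an unadjusted p under 0.05, and the median difference was -0.01. Dcc, a netrin receptor reported as a miR-218 target in mouse prefrontal cortex, had levels between 8.57 and 8.90 in mutants and between 8.53 and 8.77 in wild types. The ranges overlapped, with 5 mutants above the highest wild type, and the difference was 0.07 ± 0.03 (SE; adjusted p = 0.464). Glce, an enzyme that modifies heparan sulfate, had -0.01 ± 0.03 (adjusted p = 0.906). Slc1a2, the main glutamate transporter of astrocytes, had 0.01 ± 0.02, Rictor, a subunit of the mTORC2 kinase complex, -0.03 ± 0.02, Bmi1, a Polycomb protein, -0.03 ± 0.05 and Lamb3, a laminin chain, -0.0036 ± 0.05.

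The genes on either side of the host genes were read next, 5 measured genes on each side in the order of the gene table. Around Slit3, none of the 10 neighbours passed in limma, and their median difference was -0.01. An unadjusted p under 0.05 was found for 1 neighbour, beside 11.9% of all genes. That one was Mir103-1, another microRNA precursor, with 0.31 ± 0.09 (SE; adjusted p = 0.117). Of the 303 measured precursor genes, 133 had an unadjusted p under 0.05 in limma, 129 of them above 0. The nearest coding genes were close to 0: Spdl1, a spindle protein, had 0.04 ± 0.05 and Pank3, a pantothenate kinase, had -0.06 ± 0.03. The other coding neighbours lay between -0.03 for Insyn2b and 0.12 ± 0.07 for Foxi1, a forkhead factor (adjusted p = 0.561).

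Around Slit2, none of the 10 neighbours passed in limma. An unadjusted p under 0.05 was found for 2, both below 0, beside 11.9% of all genes. Kcnip4, a potassium channel partner, had -0.06 ± 0.02 (SE; adjusted p = 0.296) and Adgra3, an adhesion receptor, -0.09 ± 0.04 (adjusted p = 0.376). The median over these 10 was -0.02, and the lowest was Lcorl with -0.10 ± 0.05 (adjusted p = 0.462).

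**Figure D3:**
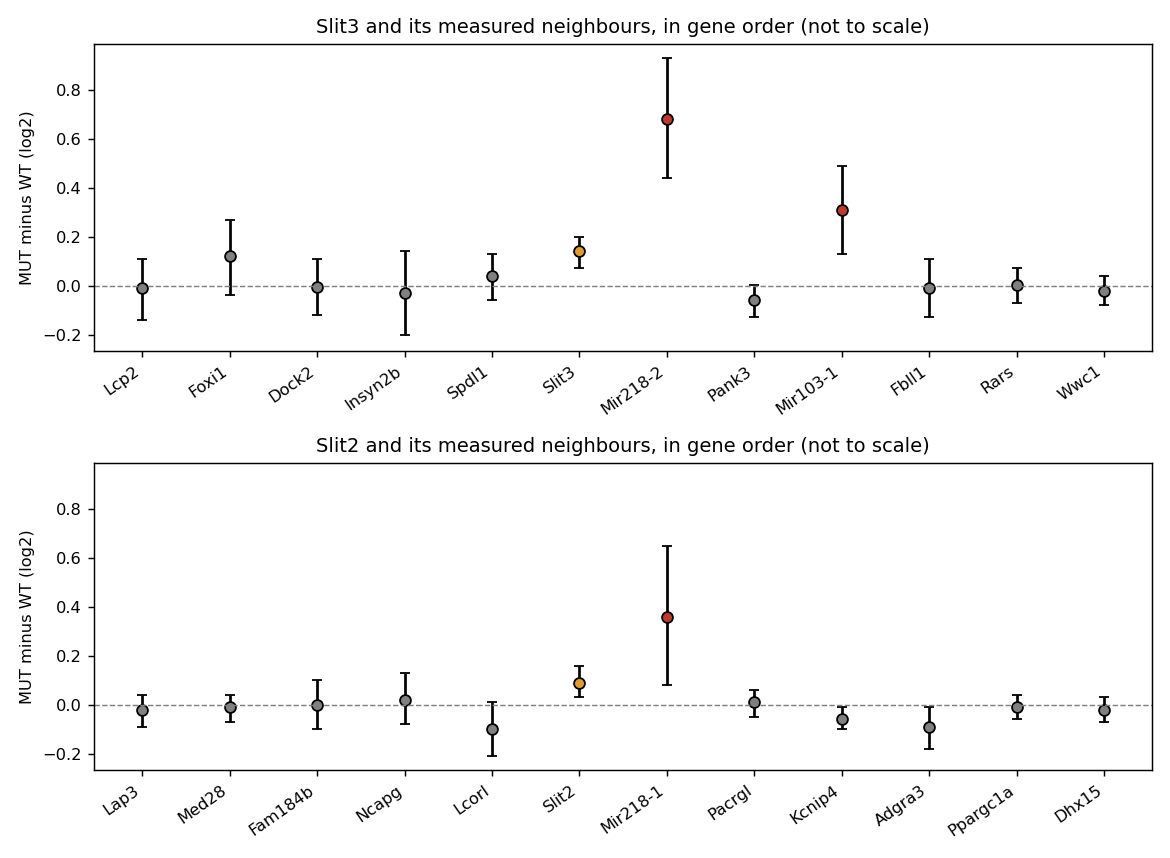
Difference between mutant and wild-type means (log2, vertical axis) with its 95% interval for Slit3 and Slit2 (orange), microRNA precursors (red) and neighbouring genes (grey), in gene order and not to scale. At each host gene the precursor inside it has the highest value of its panel, 0.68 for Mir218-2 and 0.36 for Mir218-1, followed at the Slit3 locus by Mir103-1 at 0.31.

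Whether a host gene and its precursor vary together from sample to sample was examined within each genotype, a measure that the choice of genes did not use. In mutants Slit3 and Mir218-2 had a Pearson r of 0.55 and a Spearman coefficient of 0.52 (n = 12; permutation tests, two-sided, p = 0.0641 and 0.0855; adjusted p = 0.398 and 0.504 over 8 relations). In wild types r was 0.15 and the Spearman coefficient 0.20 (permutation p = 0.633 and 0.544; adjusted p = 0.723 and 0.726). Without the 2 samples farthest from the median of Slit3, r was 0.51 in mutants and -0.11 in wild types. Neither relation passed the threshold.

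Slit2 and Mir218-1 had an r of 0.34 and a Spearman coefficient of 0.31 in mutants, and an r of 0.25 and a Spearman coefficient of 0.07 in wild types (n = 12 each; permutation tests, p between 0.272 and 0.835, adjusted p between 0.529 and 0.835). The 2 precursors had an r of 0.25 and a Spearman coefficient of 0.38 in mutants and an r of -0.06 and a Spearman coefficient of -0.09 in wild types (permutation tests, p between 0.227 and 0.857, adjusted p between 0.529 and 0.857). Without the 2 farthest samples, r was 0.27 in mutants and 0.42 in wild types for Slit2 and Mir218-1, and 0.42 in mutants and -0.19 in wild types for the 2 precursors. Robo1 and Robo2 had an r of -0.45 and a Spearman coefficient of -0.31 in mutants and an r of -0.44 and a Spearman coefficient of -0.47 in wild types (permutation tests, p between 0.126 and 0.331, adjusted p between 0.398 and 0.529). Without the 2 farthest samples their r was -0.85 in mutants and -0.17 in wild types. Leaving these samples out thus strengthened r in mutants and weakened it in wild types, and no test was run on these values.

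**Figure D4:**
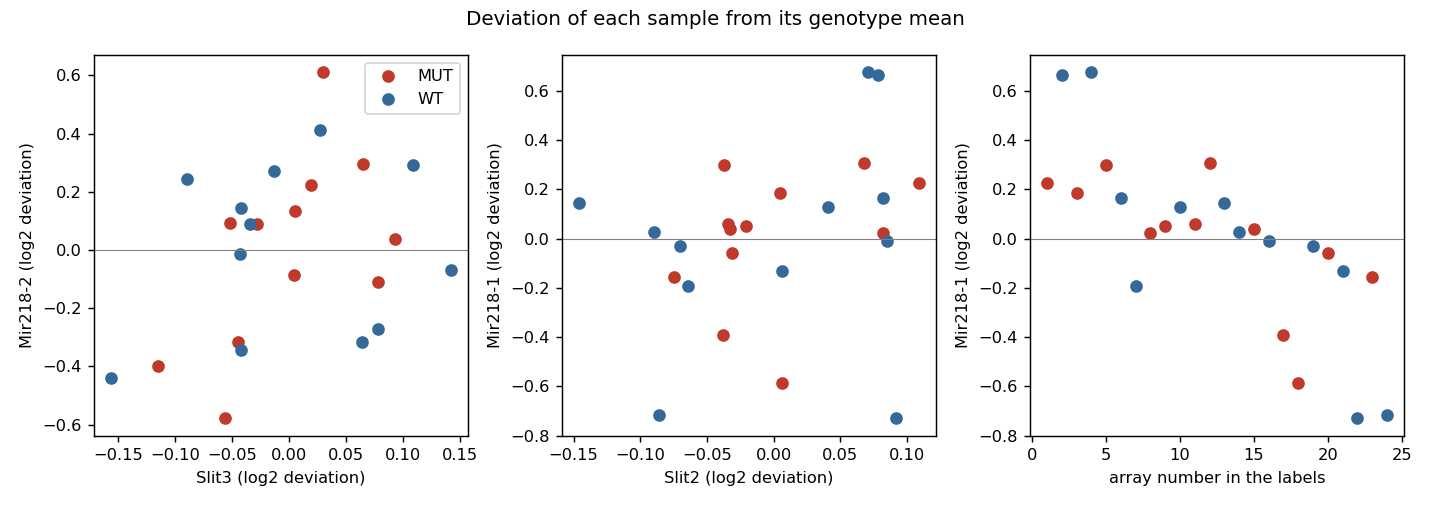
Deviation of each sample from the mean of its genotype (log2), with Slit3 against Mir218-2 (left), Slit2 against Mir218-1 (middle) and the array number in the labels against Mir218-1 (right); mutants are red and wild types blue. The left and middle panels show loose clouds, with r of 0.55 and 0.34 in mutants and 0.15 and 0.25 in wild types, while in the right panel the Mir218-1 deviation runs downward with array number in both genotypes.

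Mir218-1 followed the running array number. In mutants r was -0.68 and the Spearman coefficient -0.72, and in wild types both were -0.83 (n = 12 each; permutation tests, two-sided, p of r and of the Spearman coefficient 0.0126 and 0.0101 in mutants, 0.00044 and 0.00141 in wild types). Over the 24 relations of 12 genes with array number, computed after this pattern was seen, the adjusted p-values of r were 0.138 in mutants and 0.0106 in wild types (permutation tests), and those of the Spearman coefficient 0.122 in mutants and 0.0338 in wild types. Without the 2 samples farthest from the median array number r was -0.68 in mutants and -0.71 in wild types. Taking deviations from the genotype means over 24 arrays, r was -0.76, a size that 0.521% of all genes reached.

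The wild types of replicates 1 and 2, arrays 2 and 4, stood highest for Mir218-1 at 8.05 and 8.06, and those of replicates 11 and 12, arrays 22 and 24, lowest at 6.65 and 6.67. With array number as a term, the genotype difference of Mir218-1 was 0.31 ± 0.09 (SE; limma, adjusted p = 0.139), with a smaller error than without it. Within arrays 1 to 12 it was 0.24 ± 0.13 and within arrays 13 to 24 0.34 ± 0.17. Slit3 and Mir218-2 showed no such course, with r over 24 arrays of 0.09 and -0.05. Within genotypes the r of Mir218-2 was -0.28 in mutants and 0.19 in wild types (permutation tests, adjusted p = 0.711 and 0.775). Over the 24 arrays Srgap2 had an r of 0.61 with array number, Slit1 0.51 and Slit2, the host of Mir218-1, -0.41. For Slit2 r was -0.59 in mutants and -0.30 in wild types. Within a genotype the lowest adjusted p of r was 0.138 for Srgap2, 0.189 for Slit1 and 0.196 for Slit2 (permutation tests). What the number stands for in the laboratory is not given in the labels, and its part in the Mir218-1 spread was not tested further.

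The genes whose course over the 24 arrays was most like that of Slit3, after each genotype mean was subtracted, were Scap, a regulator of sterol synthesis, with r = 0.86, Celsr2, an adhesion cadherin, with 0.82, and Bsn, a scaffold of the presynaptic zone, with 0.81. Ltbp4, a matrix protein, and Sez6l2, a neuronal membrane protein, followed with 0.79 each. Most opposed were Dph6, an enzyme of diphthamide synthesis, with r = -0.83, Rars, the arginyl-tRNA synthetase gene among the neighbours of Slit3, with -0.80, Smu1, a splicing factor, with -0.80, Spin1, a chromatin reader, with -0.79, and Ndufv1, a subunit of respiratory complex I, with -0.77. None of these 10 genes passed the comparison of genotypes in limma. Their highest differences from 0 were those of Bsn, with 0.12 ± 0.04 (adjusted p = 0.198), and Smu1, with -0.07 ± 0.04 (adjusted p = 0.491).

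For Mir218-2 the most alike were Npff, which encodes a neuropeptide, and Catsper3, a sperm cation channel gene, with r = 0.71 each, Krtap5-1, a hair keratin-associated gene, with 0.69, and Efcab6 and Hsd17b14 with 0.67 each. Of these 5 genes none passed the comparison of genotypes in limma; the adjusted p of Efcab6 was 0.103, and 0.0234 without mutant replicate 12. These r values are the highest among 18820 genes over 24 arrays that share their processing, and are descriptions. Among the family, Slit1 and Srgap2 had an r of 0.57 with Slit3, Srgap3 0.54, Robo3 and Robo4 0.45 each and Mir218-2 0.32. Robo2 had 0.15, Robo1 0.13, Srgap1 0.08, Slit2 0.06 and Mir218-1 0.02.

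Facts of the whole series bear on these results as follows. The 10 deleted genes that were checked all fell in mutants, between -0.88 and -0.54. Array pairs correlated at 0.9939 to 0.9974 over all genes, and the first component of the variation within genotypes held 13.9% of it. Slit3 correlated with that component at 0.16, a size that 66.7% of genes reached, and Mir218-2 at 0.14. No marker of neurons, interneurons, astrocytes, oligodendrocytes and their precursors, microglia, endothelium, pericytes and fibroblasts, striatum, cortical layers or blood passed in limma. An unadjusted p under 0.05, which 11.9% of all genes had, was found for 3 of 5 striatal and 2 of 10 interneuron markers. It was also found for 3 of 4 measured blood markers, Ngp, S100a8 and S100a9. The oligodendrocyte precursor, pericyte and fibroblast, and deep-layer lists had 1 such marker each, and the other lists had none. Among all genes 49.0% were above 0. Above 0 were 9 of 10 interneuron markers (median 0.04, with list means of 9.64 to 9.86 in mutants and 9.63 to 9.76 in wild types), 5 of 5 upper-layer markers (0.02, 10.50 to 10.88 in mutants and 10.53 to 10.69 in wild types) and 6 of 8 astrocyte markers (0.01, 10.24 to 10.46 in mutants and 10.28 to 10.45 in wild types). The counts were 5 of 9 for neurons, 3 of 5 for striatum and 3 of 7 for microglia; of the striatal markers, Ppp1r1b and Drd2 had 0.13 and 0.12 and Penk -0.14. Below 0 were 6 of 6 oligodendrocyte markers (median -0.05, 9.04 to 9.45 in mutants and 8.96 to 9.61 in wild types), 5 of 6 markers of their precursors (-0.03, 8.84 to 8.98 in mutants and 8.80 to 9.01 in wild types) and 5 of 6 deep-layer markers (-0.06, 9.05 to 9.67 in mutants and 9.28 to 9.60 in wild types). So were 5 of 7 endothelial markers (median -0.01, 8.19 to 8.57 in mutants and 8.27 to 8.45 in wild types), 6 of 9 pericyte and fibroblast markers (-0.04, 7.73 to 8.10 in mutants and 7.80 to 8.30 in wild types) and 4 of 4 measured blood markers (-0.56, 5.69 to 6.68 in mutants and 6.08 to 8.94 in wild types). The blood list held 7 genes, and its measured gene closest to 0 had -0.05. Ngp, S100a8 and S100a9 spread more in wild types (SD 1.44, 1.11 and 0.74) than in mutants (0.67, 0.39 and 0.22). For S100a8 the wild-type median was 5.59 and the highest wild type 8.94. Whether the blood content of the samples differed was not tested. The smallest adjusted p of the marker lists was that of Kcnj8, a potassium channel of pericytes, with -0.18 ± 0.05 (limma, adjusted p = 0.12). The table gives no detection call, so no marker can be said to be at background, and the part of these lists in the Slit3 and Mir218-2 differences was not tested.

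**Figure D5:**
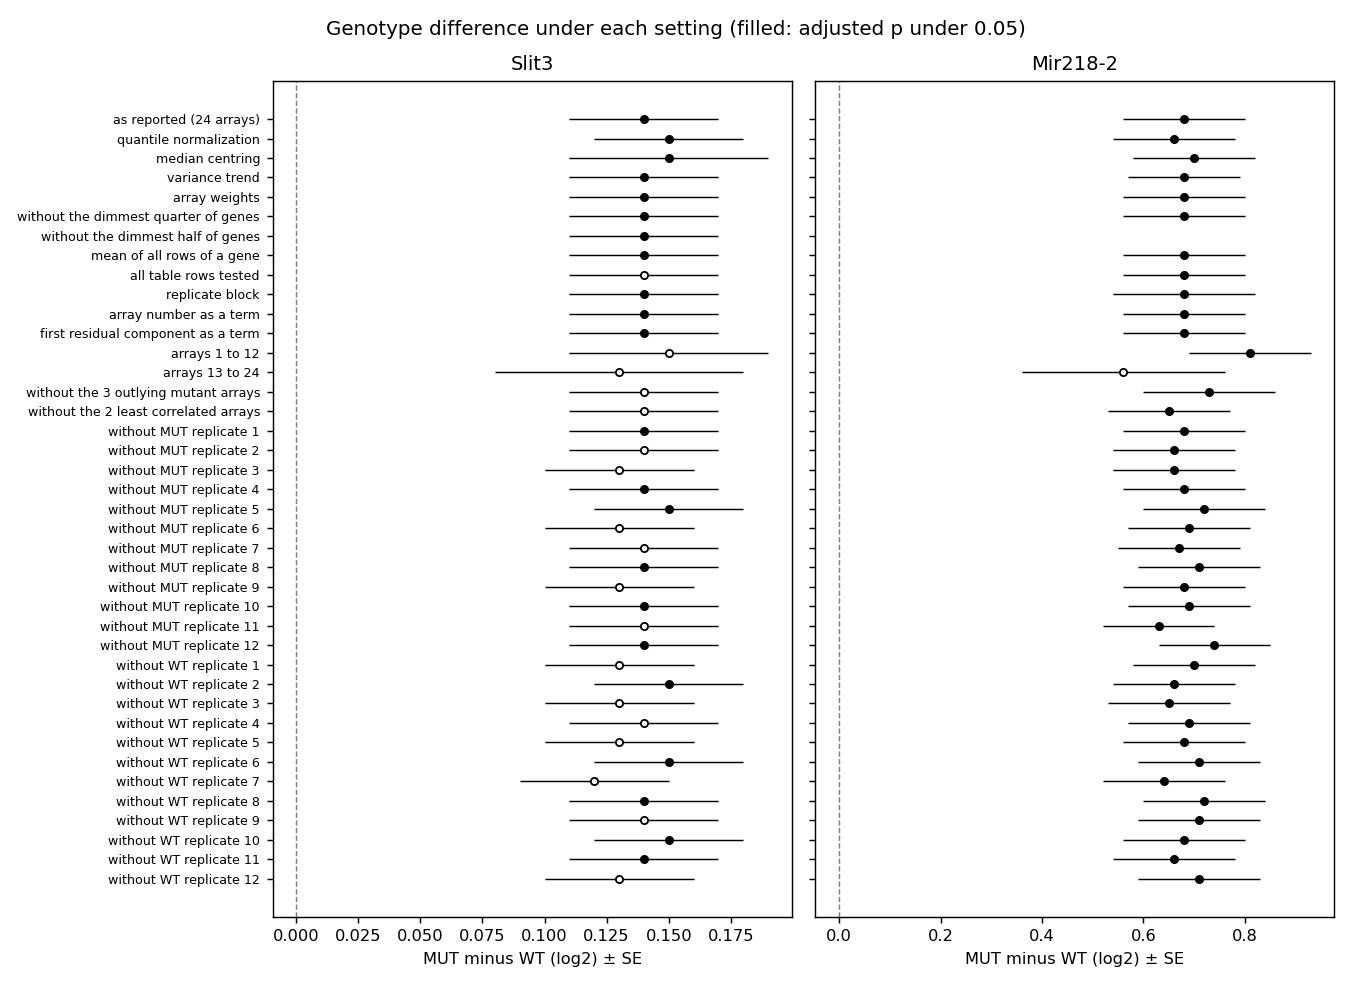
Difference between mutant and wild-type means (log2 ± SE, horizontal axis) of Slit3 (left) and Mir218-2 (right) under each setting (vertical axis); filled points passed an adjusted p under 0.05 in limma, and the row left empty for Mir218-2 is a setting that leaves its gene out. Slit3 stays between 0.12 and 0.15 while crossing the threshold repeatedly, and Mir218-2 stays between 0.56 and 0.81.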

How the data were processed

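The authors deposited 1 table of log2 values, 1 per probe set and array, for 24 arrays; per the submitters' processing notes it was made with RMA, while no version, background step or genome build is given in the sources used here. Values lay between 1.82 and 14.49, with array medians of 6.71 to 6.82. Per the labels' protocols, 100 ng of total RNA from a miRNeasy extraction was labelled as sense-strand cDNA. Of 35556 rows, 21218 had 1 gene symbol in the platform annotation, 1881 several and 12457 none. The brightest row stood for each of 18820 genes, of which 18790 matched the RefSeq table of GRCm38.p6, used for names, chromosomes and gene order. Genotypes were compared with limma 3.58.1 in R 4.3.3 (lmFit and eBayes, genotype as sole term), with Benjamini-Hochberg adjustment over all genes and a threshold of 0.05, after the step was tested on simulated data. Correlations had two-sided permutation tests with 100000 resamples (scipy 1.17.1). The number of arrays limits precision. The members and lists were chosen with earlier results of these data known. The genes open to naming were set by a rule: all members, every member of a described list past the threshold or otherwise up to 3 with the smallest p, the 5 neighbours on each side, and the 5 most like Slit3 or Mir218-2 or most opposed to Slit3. The text names some of them; the precursor, deleted-gene, marker and neighbour lists are given mostly by counts, and which of their genes are named, and list genes outside the rule, were chosen after their values were seen. Alternatives covered normalization, variance model, dim-gene filters, row choice, blocks and left-out arrays.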

Additional observations from a re-analysis of the deposited data

How the results depend on the processing

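Over 15 settings other than leaving out single arrays, the Slit3 difference lay between 0.13 and 0.15 and the Mir218-2 difference, which 14 of them give, between 0.56 and 0.81. Slit3 no longer passed with all table rows tested (0.14, adjusted p = 0.0568), without the 3 outlying mutant arrays or without the 2 least correlated arrays (0.14 each, adjusted p = 0.0595 each; both settings were chosen after seeing the data), within arrays 1 to 12 (0.15, adjusted p = 0.268) and within arrays 13 to 24 (0.13, adjusted p = 0.447). Mir218-2 did not pass within arrays 13 to 24 (0.56, adjusted p = 0.379); these last settings have 12 arrays each. The number of members higher, 2, was therefore 1 with all rows tested, within arrays 1 to 12 and in both added settings, 0 within arrays 13 to 24, and 1 without the dimmest 50% of genes, a filter that leaves Mir218-2 out. Leaving out 1 array at a time it was 1 or 2, with Slit3 between 0.12 and 0.15 and Mir218-2 between 0.63 and 0.74. No member was lower under any of these settings. Over all genes, 100 were higher and 43 lower; the counts were 48 and 67 without the dimmest 50%, 35 and 23 within arrays 1 to 12, and 35 and 22 within arrays 13 to 24. The lower count was also 66 with a variance trend, 66 without the dimmest 25% and 69 when the first component of the residuals was added to the model (150 higher), and ran from 37 to 56 with 1 array left out (higher: 82 to 108). Causes were not tested beyond the fewer genes or arrays that some settings hold. With the replicate number as a block, Slit3 had 0.14 (adjusted p = 0.0387) and Mir218-2 0.68 (adjusted p = 0.0415), and 110 genes were higher and 37 lower. Deviations of same-numbered samples correlated between -0.08 and 0.31. Their median of 0.10, against -0.01 for other numbers, means that same-numbered samples were slightly more alike. Whether the numbers pair the samples was not tested. For 105 other named genes, 4060 of 4064 values stayed on the same side of the threshold; the 4 exceptions came to pass it and belong to Nck1, Plxnd1 and Efcab6. A change of sign in values that passed in neither setting was not counted as a reversal, and by that rule none reversed.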
